A study of Mus musculus with 14 samples.

Results

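Transient promoters were accessible regions at gene starts that appeared while GATA6 drove mouse embryonic stem (ES) cells towards primitive endoderm (PrE), and that were listed neither before induction nor at 48 h. ATAC-seq peaks, places where a transposase cut accessible DNA, were merged across 14 libraries into 121891 autosomal regions when they shared at least 1 bp, and a region counted as called in a library if any of its peaks overlapped it. A promoter region had its midpoint within 1 kb of the transcription start site (TSS) of a protein-coding gene, and there were 15840 of these. The members were selected on these same calls. They were called in no 0 h and no 48 h library and in both libraries of at least 1 of 2, 4, 8, 16 and 24 h. They numbered 462 regions at 455 genes, 2.92% of promoter regions, against 15.5% of the regions farther from a TSS and 13.9% of all regions that met the same pattern.

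All cells were KH2 ES cells of strain C57BL/6 that carried the TRE:GATA6-DSREd2 transgene, the 0 h cells included. A single element that answers to doxycycline (Dox) drives both GATA6 and the red reporter in them. At 0 h the cells were in 2i medium, which holds PD0325901, CHIR9902 and LIF, and they had received no Dox. The cells of 2, 4 and 8 h were in serum medium with LIF and Dox at 1 µg/mL throughout, and those of 16, 24 and 48 h had Dox for 12 h and then serum medium without it. Induction and the change of medium cannot be told apart, since no library came from uninduced cells in serum. There were 2 libraries of 50000 cells per time point, numbered replicate 1 and 2. The study describes its replicate experiments as independent. The lists held 55588 to 65073 peaks per library. Peak lists hold no read depth, and a region that a library does not list may still be open below its threshold. Of 7 PrE marker genes, 2 had a called promoter in each 0 h library and 6 in each 48 h library, while ES cell markers had 4 and 5 of 7 in the libraries of both times. Behind these equal counts, Nanog was called in both 0 h and neither 48 h library and Pou5f1 in both 48 h and neither 0 h library.

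Most promoters of widely used genes lie in CpG-rich DNA that is open in nearly every cell, and regulated access is more often seen at enhancers. GATA6 binds a short sequence with GATA at its core and can open chromatin that was closed. AP-1, a dimer of FOS and JUN family proteins, binds TGACTCA, and its genes are among the first to be switched on when cells meet serum. In the 200 bp centred on each midpoint, both strands were searched for either motif. The GATA motif was the core letters GATA with A or T before them and A or G after them, and no match can belong to both motifs. A match is only a string of letters and not a bound site.

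To show what these promoters look like, the 200 bp around the midpoint of 8 members is printed from GRCm38, on the plus strand, with matches to the GATA or AP-1 motif in capitals. They are the highest-ranked members, and the highest-ranked with a GATA motif, of those whose window holds no annotated exon, taken in turn from 3 groups. Members called in both libraries only at 2 to 8 h are represented by Dpf3, a chromatin remodelling subunit (chr12:83488577-83488776), Mllt11 (chr3:95232866-95233065) and Prss30, a serine protease (chr17:23979595-23979794). Members called on both sides of the withdrawal of Dox are represented by Adgrf3, an adhesion G protein-coupled receptor (chr5:30205274-30205473), and Ppm1k, a mitochondrial phosphatase (chr6:57534852-57535051). Members called in both libraries only at 16 or 24 h are represented by C1rb, a complement protease (chr6:124569246-124569445), Polr3e, an RNA polymerase III subunit (chr7:120918582-120918781), and Foxa1, a forkhead factor of endoderm (chr12:57546923-57547122). The AP-1 motif stands in Mllt11 and Prss30, and the other capitals are GATA motifs. Polr3e holds neither motif.
Dpf3: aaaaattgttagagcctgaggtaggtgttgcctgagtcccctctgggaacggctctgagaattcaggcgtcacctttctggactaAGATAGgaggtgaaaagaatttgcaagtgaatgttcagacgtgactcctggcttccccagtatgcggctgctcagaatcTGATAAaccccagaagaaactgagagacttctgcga
Mllt11: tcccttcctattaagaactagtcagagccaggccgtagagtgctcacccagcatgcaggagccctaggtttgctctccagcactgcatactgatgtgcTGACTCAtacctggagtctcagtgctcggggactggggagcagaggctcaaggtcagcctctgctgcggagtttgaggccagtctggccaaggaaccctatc
Prss30: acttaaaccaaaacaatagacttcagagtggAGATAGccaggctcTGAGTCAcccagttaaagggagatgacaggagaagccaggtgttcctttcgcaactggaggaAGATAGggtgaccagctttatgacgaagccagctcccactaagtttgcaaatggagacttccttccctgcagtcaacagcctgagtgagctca
Adgrf3: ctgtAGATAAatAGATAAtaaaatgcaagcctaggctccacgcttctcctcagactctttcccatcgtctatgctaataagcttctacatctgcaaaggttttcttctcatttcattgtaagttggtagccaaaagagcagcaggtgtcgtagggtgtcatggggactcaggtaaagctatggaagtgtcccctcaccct
Ppm1k: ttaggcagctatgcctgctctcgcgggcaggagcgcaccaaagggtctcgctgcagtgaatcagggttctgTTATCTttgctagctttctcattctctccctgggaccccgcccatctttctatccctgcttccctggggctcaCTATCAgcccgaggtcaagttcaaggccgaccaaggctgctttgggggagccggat
C1rb: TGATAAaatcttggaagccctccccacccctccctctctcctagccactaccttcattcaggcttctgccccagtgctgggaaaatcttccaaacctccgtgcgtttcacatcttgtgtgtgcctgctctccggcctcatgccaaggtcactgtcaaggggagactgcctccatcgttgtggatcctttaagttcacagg
Polr3e: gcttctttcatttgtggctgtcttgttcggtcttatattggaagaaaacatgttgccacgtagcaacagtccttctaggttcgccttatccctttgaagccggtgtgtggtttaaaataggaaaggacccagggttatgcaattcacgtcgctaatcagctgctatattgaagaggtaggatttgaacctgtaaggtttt
Foxa1: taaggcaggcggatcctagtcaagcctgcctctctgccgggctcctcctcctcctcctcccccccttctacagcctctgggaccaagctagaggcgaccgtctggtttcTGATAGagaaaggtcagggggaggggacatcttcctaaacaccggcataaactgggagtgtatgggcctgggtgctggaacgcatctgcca

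The members did not open together. Of the 462, 211 (45.7%) were called in both libraries only at 2 to 8 h, 161 (34.8%) only at 16 or 24 h, and 90 (19.5%) in both periods. At 2, 4, 8, 16 and 24 h, both libraries called 169 (36.6%), 150 (32.5%), 155 (33.5%), 197 (42.6%) and 108 (23.4%) of the members. Of all promoter regions, 65.8%, 65.2%, 70.1%, 71.6% and 73.6% were called in both libraries at these times. The rule used these calls, so they carry no test. Single libraries called 194 members each at 2 h, 192 and 198 at 4 h, 202 and 211 at 8 h, 233 and 237 at 16 h, and 145 and 144 at 24 h. The 16 h libraries called the most members and the 24 h libraries the fewest. Total peaks were 61857 and 65073 at 16 h, 56981 and 58242 at 24 h and 58322 to 62604 at 2 to 8 h. This order depended on the libraries used. Without 48 h replicate 2 there were 653 members, of which 35.1% had double calls at 24 h, above the 29.7%, 27.0% and 32.5% at 2, 4 and 8 h and below the 42.3% at 16 h. Chosen on replicate 1 alone, regions were called most often at 16 h (45.2%) and next at 24 h (40.5%), and on replicate 2 alone most often at 8 h (42.1%), with 39.7% at 16 h. With the 50000 highest-scored peaks of each library, 43.9% of 401 members were called in both libraries at 16 h and 25.7% at 24 h.

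**Figure D1:**
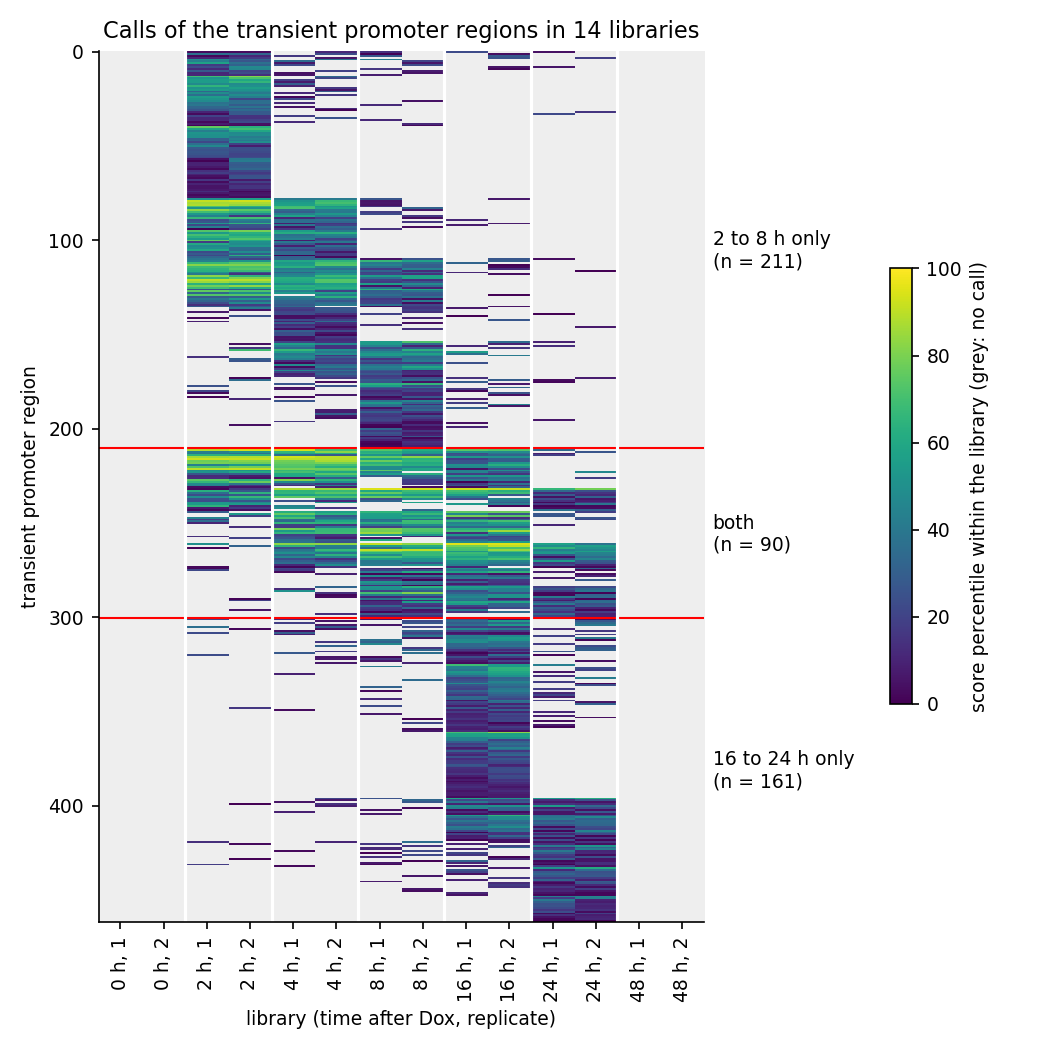
Each row is 1 of the 462 transient promoter regions and each column 1 of the 14 libraries, with time after Dox and replicate number. Colour gives the percentile of the region's score within the library, grey marks no call, and red lines separate the 211 regions of 2 to 8 h, the 90 of both periods and the 161 of 16 to 24 h. The end columns are empty because the rule asks for it, and the middle columns form steps, with few regions spanning all of them.

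Both libraries called 272 members (58.9%) at a single time point, 99 at 2, 59 at 3, 28 at 4 and 4 at all 5 time points. Calls in 1 library of a pair reached further, so that 104 members (22.5%) were confined to the libraries of 1 time point. The time points most often alone were 16 h with 95 members and 2 h with 78, followed by 24 h with 43, 8 h with 38 and 4 h with 18. Of the members called in both libraries at 2 h, 49.1%, 27.2%, 16.0% and 7.10% were so at 4, 8, 16 and 24 h. In 26 members (5.63%) the double calls stopped and came back. The authors' scores were ranked within each library, where percentile 100 is the highest peak. The median percentile of the members called lay between 17.6 and 35.0 in the 10 libraries, lowest at 24 h with 17.6 and 19.4, while promoters called in all 14 libraries had medians between 79.1 and 86.0 there. Over all their calls the members had a median percentile of 27.3, against 34.5 in promoters gained by 48 h, 37.4 in those lost and 34.3 in transient regions away from promoters, so a low rank was shared with these classes.

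AP-1 motifs belonged to the first wave of members. The motif was found in 41.4% of the 169 members first called in both libraries at 2 h, 13.4% of the 67 first so called at 4 h, 4.62% of the 65 at 8 h, 0.847% of the 118 at 16 h and in 0 of the 43 at 24 h. By library, AP-1 was present in 38.1% of the members called in each of the 2 h libraries, 25.5% and 25.8% at 4 h, 15.3% and 16.6% at 8 h, 4.72% and 5.49% at 16 h, and 1.38% and 1.39% at 24 h. Each time point lay below the one before it in both replicates. The rule asks for calls in both libraries of a time point, so likeness between replicates is in part built in. Other promoter regions called in the same 10 libraries held the motif in 1.89% to 2.37% of cases. Of all members, 83 (18%) had an AP-1 motif, and 75 of these were among the 211 regions of 2 to 8 h.

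GATA motifs had another course. Of the members first called in both libraries at 2, 4, 8, 16 and 24 h, 36.7%, 53.7%, 43.1%, 33.1% and 23.3% had one. By library the shares were 37.6% and 35.1% at 2 h, 47.9% and 46.5% at 4 h, 52.0% and 49.3% at 8 h, 43.8% and 43.9% at 16 h, and 36.6% and 36.8% at 24 h, with the 8 h libraries highest. Other promoter regions called in these libraries held the motif in 9.35% to 10.3% of cases. The 90 members called in both periods had the highest share, 58.9%, against 34.6% of those of 2 to 8 h and 30.4% of those of 16 to 24 h. The order of the last pair turned in windows of 45 to 55% GC, with 37.4% early and 42.2% late. It also turned above 55% GC, with 15.4% and 22.6%. Below 45% GC it did not turn, with the motif in 24 of 34 early and 6 of 10 late members. The members of both periods stayed highest, with 65.9%, 37.8% and all 12 in these ranges. The share was 26.9% of the 104 members called in 2 libraries, 38.0% of the 92 called in 4, 64.3% of the 28 called in 8, 7 of the 9 called in 9 and all 4 of those called in 10. A permuted motif, with AGTA as the core in place of GATA, was found in 22.1%, 18.5%, 14.3%, 44.4% and 0 of the same sets. By period it was found in 24.2% of the members of 2 to 8 h, 18.9% of those of both periods and 9.94% of those of 16 to 24 h. Both real motifs together occurred in 29 members, and 233 (50.4%) had neither, among them 112 of the 161 late ones.

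**Figure D2:**
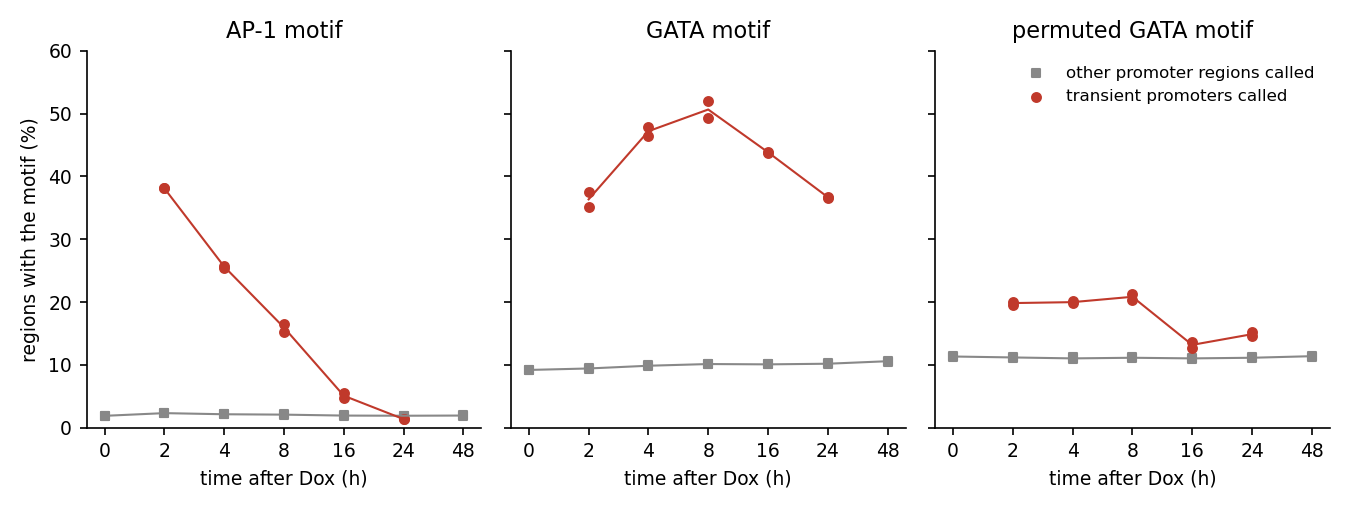
Share of regions with the AP-1, GATA or permuted GATA motif within the 200 bp around the midpoint, by time after Dox in h, with 1 point per library and lines through the means. Red circles are the transient promoters called in the library and grey squares the other promoter regions called there; AP-1 among the members went from 38.1% at 2 h to 1.38% and 1.39% at 24 h, and GATA was highest at 8 h.

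Both motifs were concentrated near the midpoints. Within 300 bp on either side, 60.3% of AP-1 matches and 47.7% of GATA matches lay in the inner 100 bp, against 29.6% of matches to the permuted motif. Transient regions away from promoters had a like course, with AP-1 in 47.6%, 14.2%, 7.90%, 2.80% and 3.84% of those first called in both libraries at 2, 4, 8, 16 and 24 h. Their GATA shares were 41.7%, 72.7%, 74.9%, 52.2% and 40.6%.

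The longest-lasting members were at genes with varied roles. The 4 that were called in all 10 libraries of 2 to 24 h each held a GATA motif and none an AP-1 motif. At Adgrf3, centred in an intron 348 bp downstream of the TSS, which it also covered, the percentiles of replicates 1 and 2 were 1.2 and 16.6 at 2 h, 87.7 and 84.9 at 4 h, 94.9 and 92.8 at 8 h, 92.5 and 91.1 at 16 h, and 66.4 and 78.6 at 24 h. This region thus went from low in both lists at 2 h, at the bottom in replicate 1 only, to near the top at 8 h. At Ppm1k, in an intron 516 bp downstream of the TSS, they were 63.0 and 27.6, 65.5 and 67.3, 59.6 and 68.7, 69.8 and 63.6, and 33.9 and 24.6 at the same times. At Ahcy, whose enzyme removes S-adenosylhomocysteine, a region 632 bp upstream had 36.3 and 64.6, 66.5 and 73.3, 75.6 and 65.0, 66.0 and 68.8, and 12.0 and 15.3. At Itih4, which encodes a secreted plasma protein, a region 969 bp upstream had 23.5 and 27.4, 56.5 and 60.5, 56.9 and 54.0, 56.6 and 27.8, and 28.2 and 11. In all 4, both 4 h libraries lay above both 2 h libraries. The regions of Ahcy and Ppm1k lay 117 and 254 bp from a region that was called in all 14 libraries.

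The next 6 in rank were called in 9 of the 10 libraries. Slc46a3, a lysosomal transporter, began high, with percentiles 88.0 and 92.4 at 2 h, and had 34.6 and no call at 24 h. Ehf, an ETS factor of epithelia, ran the other way, with 0.6 and no call at 2 h and 65.3 and 51.2 at 24 h. Slc26a10, of a family of anion transporters, reached 95 and 94.9 at 16 h, and Lmod3, a nucleator of actin filaments in muscle, reached 78.7 and 90.6 at 16 h. Stk40, a kinase-like protein, was highest at 4 h with 66.1 and 82.4. Tigit, an inhibitory receptor of lymphocytes, had 2 members at its start, 192 and 817 bp upstream, and was 1 of 7 genes with more than 1. Its nearer region had 75.3 and 71.8 at 4 h and 4.6 and 32.2 at 24 h.

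Members confined to the libraries of 1 time point numbered 38, 6, 11, 35 and 14 at 2, 4, 8, 16 and 24 h. The highest-ranked of 2 h were at Nr1d1, a nuclear receptor of the circadian clock (percentiles 75.8 and 63.5), Rpl3, a ribosomal protein (57.1 and 69.2), and Klk10, a kallikrein (42.8 and 60.1). All 3 held an AP-1 motif, and the Nr1d1 region also held a GATA motif. At 4 h they were at Ffar3, a receptor of short-chain fatty acids (31.2 and 22.3), Lnx1 (23.5 and 5.8) and 2310046K23Rik (24.1 and 1.6), and at 8 h at 1700001C02Rik (32.7 and 5.0), Mcemp1 (18 and 16.1) and Prss45 (25.7 and 7.7). None of these 6 held an AP-1 motif, and 1700001C02Rik and 2310046K23Rik had GATA motifs. Ffar3 had another member at its start, 255 bp upstream, that both libraries called at 4, 8, 16 and 24 h, so this start was not confined to 4 h. At 16 h they were at Adam8, a metalloprotease (70.3 and 82.2), Msra, which repairs oxidised methionine (57.9 and 56.7), and the olfactory receptor gene Olfr913 (56.9 and 57.2). Those of 24 h were at Pcbp4, an RNA-binding protein (42.5 and 44.7), Fcgr3, an antibody receptor (18.4 and 42.9), and Wdr86 (40.3 and 9.5). The regions of 16 and 24 h held no AP-1 motif, and those of Adam8 and Olfr913 held a GATA motif. A peak of a 0 h or 48 h library lay 54, 106, 102 and 65 bp from the regions of Nr1d1, Klk10, Adam8 and Fcgr3. The Fcgr3 region also lay 47 bp from a region called in all 14 libraries. For the other regions named here as confined to 1 time point, the nearest such peak was 611 bp (Olfr913) or more away. All 104 members called in 2 libraries had a median of their mean percentiles of 17.8.

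In sequence, transient promoters lay between promoters and distal regions. Their median GC content was 54.5%, against 61.0% in the 1294 promoter regions gained by 48 h, 56.0% in the 648 lost, 65.5% in the 8444 called in all 14 libraries and 48.5% in the 16475 transient distal regions. The ratio of observed to expected CpG was 0.302, against 0.655, 0.394, 0.810 and 0.182. They were 444 bp wide in the median, close to the 451 bp of gained promoters and 477 bp of transient distal regions, with 650 bp in lost promoters and 899 bp in those called in all libraries. GATA motifs were found in 37.9% of members, 22.3% of gained, 13.3% of lost and 8.59% of always-called promoters and 53.6% of transient distal regions, and in 12.5% of all promoter regions. AP-1 was found in 18%, 3.4%, 4.48%, 1.75% and 27.0% of the same classes and in 2.82% of all promoter regions. The GGGCGG motif of SP and KLF factors ran the other way, with 20.8% of members, 39.0% of gained, 23.5% of lost, 54.5% of always-called and 46.3% of all promoter regions and 7.41% of transient distal regions. Regions are not replicates, so these shares carry no test.

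**Figure D3:**
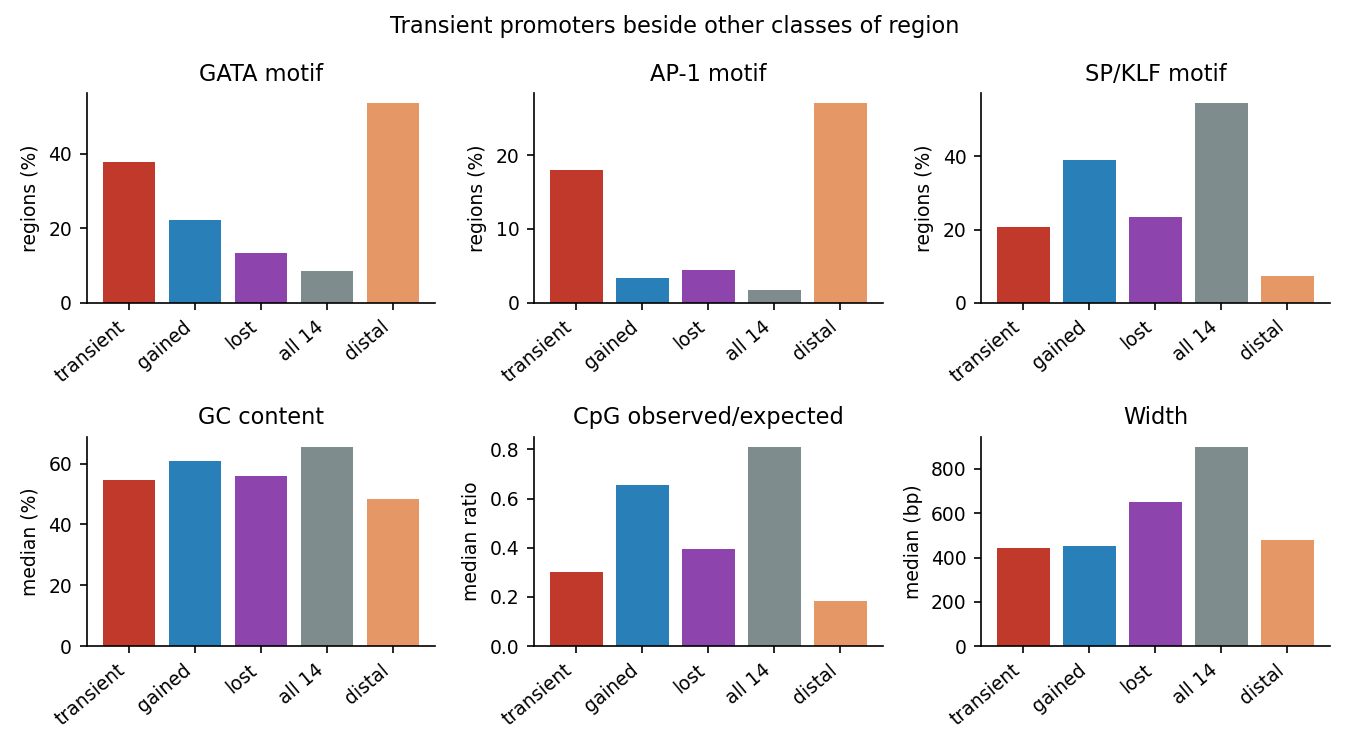
Bars give the share of regions with the GATA, AP-1 or SP/KLF motif in percent, and the median GC content in percent, ratio of observed to expected CpG and width in bp, for 462 transient promoters, 1294 promoters gained by 48 h, 648 lost, 8444 called in all 14 libraries and 16475 transient distal regions. The transient promoters stand next to the distal regions for AP-1 (18% and 27.0%), with 1.75% to 4.48% in the other promoter classes.

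The shares were then compared at like GC content, because GATA matches are rarer in GC-rich DNA. Among windows with 45 to 55% GC, AP-1 was found in 25.9% of 185 members, 5.90% of gained, 5.04% of lost and 2.99% of always-called promoters. In the same windows GATA was found in 44.9% of members and 43.2% of gained promoters, so that these 2 classes were close there. The share was 22.7% in lost and 24.6% in always-called promoters. The permuted motif ranged from 22.2% to 26.4% in these 4 classes. Above 55% GC, GATA was found in 22.6% of 221 members, 11.7% of gained, 5.69% of lost and 6.70% of always-called promoters, and AP-1 in 10.9%, 2.34%, 3.79% and 1.59%. Within 45 to 55% GC the AP-1 share was 43.4% in members of 2 to 8 h, 9.76% in those of both periods and 2.22% in those of 16 to 24 h. Above 55% GC, GGGCGG was found in 36.2% of members, 52.1% of gained, 35.0% of lost and 58.1% of always-called promoters. At 45 to 55% GC its shares were 8.11%, 10.6%, 9.66% and 24.1%, and below 45% they were 1.79%, 5.26%, 0 and 12.5%. Other motifs with known roles at promoters were compared without matching for GC content, and they went both ways. The median GC content was 54.5% in members and 64.0% in all promoter regions. ETS (CCGGAAG) was found in 2.60% of members, against 8.60% of all promoter regions, and YY1 (AAGATGGC) in 0 of 462, against 2.33%. The TATA box (TATAAA) was found in 5.41% of members and 2.68% of all promoter regions. The CCAAT box of NFY was found in 25.3% and 21.5%. The lost promoters held ETS in 1.70%, YY1 in 0.463%, the TATA box in 5.09% and the CCAAT box in 20.5%.

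Many of these regions stood beside the annotated 5′ end of their gene rather than on it. This TSS lay inside 193 members (41.8%), against 90.5% of promoters called in all libraries and 71.4% of all promoter regions. Midpoints were upstream of the TSS in 256 members (55.4%), and the median distance was 387 bp, against 148 bp for always-called promoters. In 99 members (21.4%) the midpoint was nearer to another protein-coding transcript start, and in 12 to a start of a gene of another type. By annotation, 220 midpoints were intergenic, 131 intronic, 73 in a UTR, 22 in coding sequence and 16 in another exon. Members of 16 h were nearest, with a median of 222 bp for those first called in both libraries then and 539 bp for those of 2 h. A region called in all 14 libraries stood at the same gene start in 107 members (23.2%), another region in 115 (24.9%) and none in 240 (51.9%). Within 1 kb of a region called in all 14 libraries were 26.2% of members, against 31.2% of gained, 19.3% of lost and 19.0% of all promoter regions. A peak of some 0 h or 48 h library lay within 500 bp of 187 members (40.5%). The 275 others held a GATA motif in 37.1% of cases, close to the 37.9% of all members, and 39.8% of those first called in both libraries at 2 h held AP-1.

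Of the 13753 genes with a promoter region, 469 (3.41%) had a transient one within 1 kb of their start. Of the study's PrE genes 12 of 532 did (2.26%), and of its epiblast (Epi) genes 7 of 187 (3.74%), both near the share of all genes. The study's lists derive from blastocyst cells and not from these libraries. The PrE genes highest in rank were Dnajc25, Dnajc22, Npl and Mcfd2, and the Epi genes were Upp1, Aire, BC028528 and Rasgrp2. In this order their regions lay 13, 644, 416, 54, 302, 49, 1083 and 1984 bp from the nearest 0 h or 48 h peak. A region called in all 14 libraries stood at the starts of Dnajc22, Npl, Mcfd2, Upp1 and Aire. Upp1, uridine phosphorylase, was called in 9 libraries, with percentiles of 64.4 and 61.9 at 2 h and 18.7 and no call at 24 h, and it held both motifs. Of 18 genes of naive pluripotency, 14 AP-1 genes, 21 immediate-early genes, 12 actin and SRF target genes and 16 of primitive streak and mesoderm, 0 had a transient promoter. Lists of this size are too small to read a count of 0 against the share of all genes.

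Regulators of the GATA and endoderm programmes were represented by single regions. Zfpm1, which encodes the GATA cofactor FOG1, had an intronic member 708 bp downstream of its TSS with 2 GATA motifs. Its percentiles were 43.7 and 53.8 at 2 h, 74.1 and 69.6 at 4 h, 68.8 and 62.6 at 8 h, 49.9 and 62.5 at 16 h, and it was not called at 24 h. Its start also had a region called in all 14 libraries, 391 bp away. Foxa1, a factor that opens chromatin in endoderm, had a member over its TSS that was called in 1 library at 4, 8 and 24 h (5.4, 23.1 and 27.7) and in both at 16 h (35.2 and 55.2). No other region stood at that start. Among genes of the Notch and Hippo pathways 3 of 21 (14.3%) had a member. They were Heyl and Hes5, repressors induced by Notch, and Tead4, the DNA-binding partner of YAP, and the count is too small to read against 3.41%. Heyl was called in both libraries from 2 to 8 h, with 39.0 and 19.8 at 2 h, and in 1 library at 16 and 24 h (27.2 and 3.2). Hes5 was called in both at 16 h with 12.2 and 3.8, and in 1 library at 8 h (6.4). Tead4 had calls in both at 2 h (49.3 and 32.2) and in 1 library at 4 and 8 h (38.6 and 42.5). The Tead4 region held a GATA and an AP-1 motif and lay 224 bp from a region called in all 14 libraries.

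Gata6 itself, the only marker gene with a member, had a region 498 bp upstream of its TSS on chromosome 18 (11051374 to 11051757), with 2 GATA motifs. It was called in 1 library at 8 h (11.4) and in both at 16 h (32.5 and 20.5). The region lay 304 bp from a 0 h or 48 h peak and 505 bp from a region called in all 14 libraries.

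Other pathways gave single members. Etv4, an ETS factor downstream of FGF, had 10.3 and 28.4 at 2 h, and Sos2, an activator of RAS, had 18.2 and 16.6 at 2 h. Skil, a repressor of SMAD proteins, had 10.0 and 19.7 at 2 h, and Tcf7, an effector of WNT, had 5.1 and 14.9 at 2 h. Of these 4 only Etv4 had a call in a further library, at 24 h (15.3), and Sos2 held an AP-1 motif. A peak of a 0 h or 48 h library lay 102, 191, 252 and 116 bp from the regions of Etv4, Sos2, Skil and Tcf7. For the chemokine gene Cxcl10, both libraries gave calls at 2 h (53.2 and 47.0) and 24 h (2.2 and 16.2). Replicate 2 alone called it at 4, 8 and 16 h (54.2, 57.7 and 30.1), and both motifs were present. The Cxcl10 region lay 235 bp from a 0 h or 48 h peak. Beside the 3.41% of all genes, collagens had 4 of 28 genes with a member (14.3%; Col7a1, Col6a6, Col11a2 and Col9a3), olfactory, taste and vomeronasal receptors 5 of 29 (17.2%) and solute carriers 9 of 259 (3.47%). Zinc finger proteins named Zfp or Zscan had 8 of 351 (2.28%), protocadherins and cadherins 1 of 56 (1.79%), ribosomal proteins 1 of 73 (1.37%) and Sox factors 0 of 16. These counts are small and carry no test. Col7a1, an anchoring fibril collagen, began at 92.3 and 91.3 at 2 h and had 17.6 and 29.1 at 16 h, its last calls. Gapdh and Rpl3, genes used by every cell, each had a member upstream of the start, at 702 and 941 bp. At Gapdh the start also had a region called in all 14 libraries.

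To ask whether the pattern holds in libraries that took no part in the choice, regions were chosen on 1 replicate number and followed in the other. Chosen on replicate 1, 1483 promoter regions were absent at both ends and called at a time between. Replicate 2 called 20.4%, 27.4%, 26.9%, 37.6%, 36.6%, 33.0% and 29.0% of them in order of time from 0 to 48 h. The mean of the 5 transition libraries was 32.3% and that of the 2 end libraries 24.7%, a difference of 7.60 percentage points (exact one-sided permutation p = 0.143, adjusted p = 0.143, 7 libraries). The 48 h library lay above those of 2 and 4 h. Chosen on replicate 2, 1143 regions were called by replicate 1 in 10.8%, 23.4%, 24.6%, 27.0%, 33.1%, 23.1% and 10.7% of cases in order of time. Every transition library lay above both ends, with a difference of 15.5 percentage points (exact one-sided permutation p = 0.0476, the smallest that 21 arrangements allow, adjusted p = 0.0952 over the 2 tests). Neither test passed 0.05 after adjustment. Both did under 4 of the 7 alternatives run, those with peaks up to 100 bp apart merged, transcript starts, a limit of 2 kb or no end peak within 500 bp (exact permutation, adjusted p = 0.0476). These alternatives rerun the same libraries, so they add no independent support to the main tests. Each test holds 1 library per time point, so its p-value measures only the spread between these libraries.

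**Figure D4:**
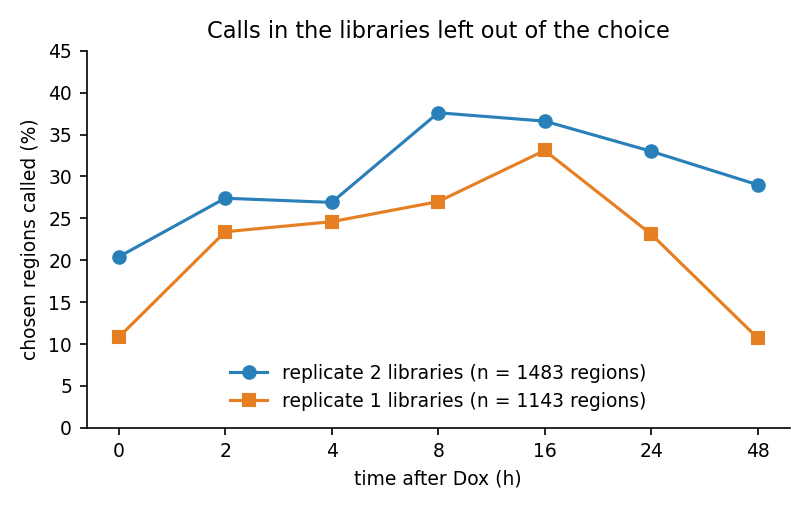
Share of promoter regions called in percent against time after Dox in h, for regions chosen on the other replicate number; each point is 1 library. The replicate 1 libraries (orange) call 10.8% and 10.7% at the ends and 23.1% to 33.1% between, and the replicate 2 libraries (blue) 20.4% and 29.0% at the ends and 26.9% to 37.6% between.

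Regions called at a single time by 1 replicate number were called at that time by the other in a minority of cases. Of 155 regions called by replicate 1 at 2 h alone, replicate 2 called 47.1% at 2 h and 18.7% at 48 h. Of 76 called by replicate 1 at 4 h alone, replicate 2 called 22.4% at 4 h and as many at 48 h. Of 118 called by replicate 1 at 8 h alone, replicate 2 called 28.8% at 8 h and 15.3% at 48 h. Of 210 regions called by replicate 1 at 16 h alone, replicate 2 called 37.6% at 16 h and 18.6% at 48 h. Of 211 called by replicate 1 at 24 h alone, it called 33.2% at 24 h and 37.0% at 48 h. In the other direction, of 158 called by replicate 2 at 16 h alone, replicate 1 called 43.0% at 16 h and 5.70% at 48 h, and of 129 called at 24 h alone it called 28.7% at 24 h and 17.1% at 48 h.

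The edge of the rule ran through a dense part of the data. Another 468 promoter regions had a double call between 2 and 24 h and were called in exactly 1 end library, which was 48 h replicate 2 for 191, 0 h replicate 2 for 141, 0 h replicate 1 for 71 and 48 h replicate 1 for 65. Their median percentile in that end library was 20.3. A further 750 were absent at both ends and had calls between but no double call, with a median percentile of 8.29. Of transient regions just past the distance limit, 36 had midpoints in the next 100 bp, and 52 members lay in the last 100 bp inside it.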

How the data were processed

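For each library the authors deposited 1 list of ATAC-seq peaks from the ENCODE pipeline, which per the file names kept peaks by an irreproducible discovery rate of 0.05 on pseudoreplicates and removed blacklisted ones. The submitters' processing notes name mm10 and GRCm38. Each deposited peak carries 1 score of unstated scale, which was used only to rank peaks within a list. The lists hold no counts, so the study's test on reads could not be run. The study gives read totals per library, which were not used here. Of 839049 peaks, 0 ended past a GRCm38 chromosome.

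Peaks of the 19 autosomes were merged when they shared 1 bp. Distances were to the 5' end of each GENCODE vM21 protein-coding gene, and coordinates count from 1. Motifs were matched as exact letters in the RefSeq GRCm38 genome. Scripts used python 3.11.15, numpy 2.4.6, pandas 2.3.3, scipy 1.17.1 and pysam 0.24.0, and were tested on simulated peak lists. The 2 held-out tests were exact permutation tests over libraries with Benjamini-Hochberg adjustment; their regions were merged over all 14 libraries.

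Members are ranked by the number of the 10 libraries of 2 to 24 h that called them, then by mean percentile. Named are the first 10, the first 3 called at 1 time point alone, the first 4 of each gene list and marker genes, and not all lists are described. Members, lists and motifs were chosen with earlier results of these data known. Alternatives covered peak number, overlap, merging, start sites, distance, isolation and libraries left out.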

Additional observations from a re-analysis of the deposited data

Results flagged for a closer look

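Chromosome X was left out of the members. There, 15 of 531 promoter regions (2.82%) met the same pattern of calls, beside 2.92% on the autosomes. They drew attention because they lie in data that the comparisons above do not use; the share was not tested.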

How the results depend on the processing

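The 462 members became 758 with every protein-coding transcript start, 264 within 500 bp, 896 within 2 kb and 275 where no 0 h or 48 h peak lay within 500 bp. Their share of promoter regions was 3.84%, 2.06%, 4.62% and 1.74% under these 4, and 3.66% with at least 50% of the region covered. Within 500 bp, 29.5% and 26.5% of members were called in both libraries at 2 and 4 h, and without nearby end peaks 50.5% were at 16 h. The share with a GATA motif was 31.8% within 500 bp, 43.5% within 2 kb and 56.7% in the whole region. That within 1 kb of a region called in all libraries was 17.7% with 50000 peaks, 18.3% with at least 50% covered, 21.7% with peaks up to 100 bp apart merged, 20.1% with transcript starts, 17% within 500 bp and 6.18% without nearby end peaks, where the last is low by construction. AP-1 shares, whose alternatives were chosen after seeing the data, were 58.6% of members first called at 2 h and 4.35% of those first called at 16 or 24 h in the whole region, and the latter was 0 of 109 within 500 bp.

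The held-out differences passed 0.05 after adjustment under 4 alternatives, each with an exact permutation p and adjusted p of 0.0476. In replicate 2 and replicate 1 they were 11.2 and 18.5 percentage points with peaks up to 100 bp apart merged, 10.1 and 16.5 with transcript starts, 11.7 and 17.1 within 2 kb, and 11.5 and 18.7 without nearby end peaks. The causes were not tested. No paired analysis was possible because each held-out test uses libraries of 1 replicate number only.

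With 1 library left out, its time point rests on the other alone, which is looser by construction. Members then numbered 510 to 653 and were 3.22% to 4.12% of promoter regions, and without all 7 libraries of a replicate number they were 1143 to 1483 and 7.22% to 9.36%. Over both kinds of omission, 17.7% to 61.0% were called in both or the remaining library of a time point, 24.3% to 37.5% had a GATA motif, 25.3% to 35.0% lay within 1 kb of an always-called region, and AP-1 was found in 20.4% to 41.4% of members first called at 2 h and 0.369% to 2.11% of those first called at 16 or 24 h. Of 94 other values, 62 stayed within the limits used, which were 1.5 times for a count, the exact 95% binomial interval for a share and the side of 0.05 for a test. The calling threshold limits every count, since a region below it in a library is listed as absent.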
